A study of Mus musculus with 27 samples.

Results

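Bone marrow-derived macrophages (BMDM) given 2 doses of lipopolysaccharide (LPS), a ligand of TLR4, were compared with BMDM given 2 doses of CpG DNA, a ligand of TLR9. The comparison used 5 of the 27 microarrays of the series, 2 for re-stimulated LPS and 3 for re-stimulated CpG, chosen by their sample titles. The third re-stimulated LPS array failed the authors' quality control, has no normalized values and entered only in an alternative. All cells were grown for 7 days in L929-conditioned medium from the marrow of female C57BL/6 mice aged 6 to 8 weeks, with no genetic change named in the labels. Re-stimulated LPS BMDM received LPS at 100 ng/ml for 24 h, were washed and rested, and received LPS again for 4 h. Re-stimulated CpG BMDM went through the same schedule with CpG DNA, for which the labels give 100 µM and the methods of the study a lower concentration, so the dose is uncertain. The values quoted from other groups on these arrays are from untreated (naive) BMDM, from BMDM stimulated once for 4 h (acute) with either ligand, and from BMDM stimulated once or re-stimulated with Pam3CSK4 (TLR2) or Poly(I:C) (TLR3). The sources differ on whether a replicate was 1 mouse or a pool of mice, and the p-values measure only the spread between these samples.

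TLR4 binds LPS at the cell surface and signals through the adapter MyD88 there and, once internalized, through the adapter TRIF. TLR9 binds CpG DNA inside endosomes and signals through MyD88. MyD88 drives NF-κB and MAPK and the inflammatory cytokine genes, while TRIF activates IRF3 and with it interferon-β, and macrophages exposed to LPS for a day are known to answer a later dose with less of many of these cytokines, a state called endotoxin tolerance.

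Each array held 62976 spots, control spots included. Among the 5 arrays, 43.6% to 48.6% of the spots other than controls were well above background and none was saturated. The third LPS array stood apart at 92.4%. The values are normalized log2 intensities of single-colour arrays, so 1 unit is a doubling, and their precision is limited by having 2 and 3 arrays. Macrophage markers were present on all 5 arrays: Csf1r, the receptor for the growth factor that sustains macrophages, read 18.03 and 18.28 against 17.64, 17.86 and 17.82 (re-stimulated LPS against re-stimulated CpG, here and below), and the lysosomal glycoprotein Cd68 read 16.67 and 16.53 against 15.98, 15.68 and 16.53. Of the markers of other cell types, 5 of 8 for B cells, 4 of 9 for T and NK cells and 3 of 9 for erythroid cells and megakaryocytes were well above background often enough to be tested. The T cell receptor component Cd3d was not, but the 4 tested T and NK cell markers had medians of 10.13 and 10.67 against 10.54, 10.08 and 9.94.

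Several neutrophil markers set CpG replicate 3 apart from the other arrays of the comparison. The calgranulin S100a9 read 15.10 and 14.75 against 14.95, 15.57 and 5.65, the granule protein lactoferrin (Ltf) read 10.53 and 10.30 against 10.13, 10.39 and 3.88, Ngp read 9.71 and 8.996 against 9.43, 9.32 and 2.69, and the surface antigen Ly6g read 11.67 and 12.77 against 8.74, 10.23 and 3.81. CpG replicate 3 was far below the other 4 arrays for all 4 of these genes, while S100a8, at 13.81 and 13.96 against 14.20, 14.62 and 14.83, was not lower there, and 9 of 12 neutrophil markers were tested. None of these markers passed the test between the groups. The third LPS array lay on the same slide as CpG replicate 3. With values remade from scanner intensities (the remade scale), it read 5.30 for S100a9, 2.76 for Ltf and 4.51 for Ly6g. The other LPS arrays read 15.07 and 14.72 for S100a9 on that scale. Ngp and S100a8 were not low on the third LPS array, at 10.72 and 13.36. Fibroblast and stromal markers had 5 of 9 members tested, of which 2 had an unadjusted p under 0.05 (0 called by limma). Dcn read 9.35 and 8.68 against 6.08, 6.77 and 6.67 and was higher on both LPS arrays. Lum, at 3.24 and 2.58 against 6.11, 7.17 and 5.46, was higher on all CpG arrays. Its bound was at least 10.1-fold, since it was not well above background on either LPS array. On the remade scale the third LPS array read 3.94 for Dcn, below the CpG mean of 6.73, and 2.47 for Lum, below the CpG mean of 6.47. For dendritic cell markers, 6 of 9 were tested and in none of them were the groups without overlap at 1.5-fold or more. In a bulk sample, fewer cells of a type and less RNA per cell cannot be told apart. For many gene groups the counts or the median are also given without CpG replicate 3, and the part of these markers in any other result was not tested.

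**Figure D1:**
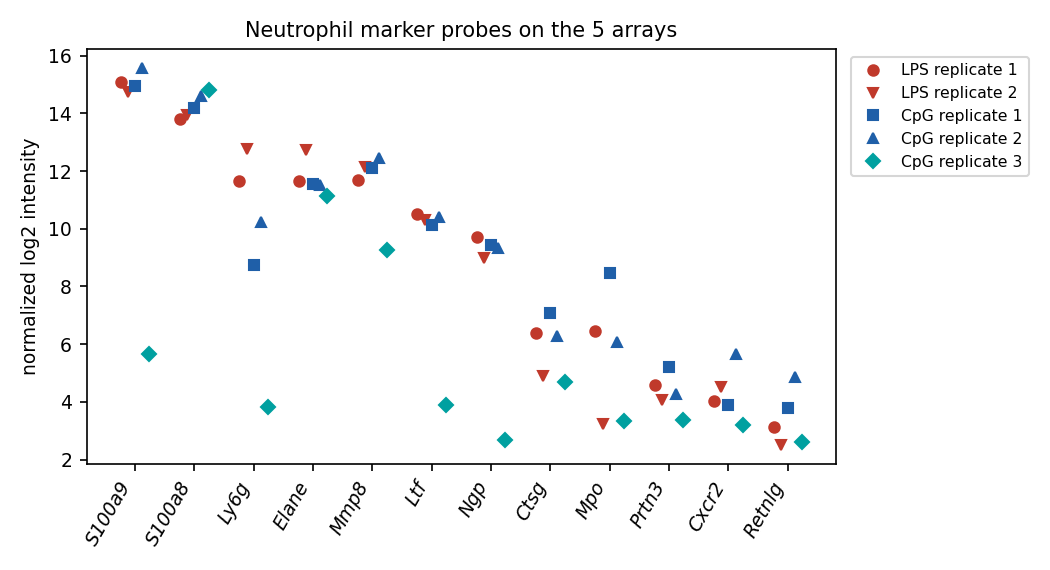
Normalized log2 intensity (vertical axis) of the 12 neutrophil marker probes on the 2 re-stimulated LPS and 3 re-stimulated CpG arrays. CpG replicate 3 (diamonds) lies near the bottom of the scale for S100a9, Ly6g, Ltf and Ngp and beside the other arrays for S100a8.

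The first question was which transcripts differed between the 2 re-stimulated states. Of 25282 probes that the scanner software marked as well above background on 2 or more arrays of 1 of the groups, 1 was called (limma, Benjamini-Hochberg adjusted p under 0.05 and at least 1.5-fold, with the spread estimated over all 4 re-stimulated groups). It lay in Dclk1 and was higher in re-stimulated LPS, 0.00396% of the probes tested, and 0 probes were called higher in re-stimulated CpG. In the same fit 2900 probes had an unadjusted p under 0.05. When the spread was estimated from the 5 arrays alone, 40 probes were called higher in re-stimulated LPS and 40 higher in re-stimulated CpG (0.158% of those tested in each direction; over genes with 1 probe each, 30 or 0.162% and 33 or 0.178%), although the unadjusted count was then 3845. Leaving the Poly(I:C) group out of the shared estimate gave 82 and 83 probes. In the fit of the 5 arrays, leaving out CpG replicate 3 gave 78 and 41, leaving out CpG replicate 2 gave 0 and 1, and leaving out CpG replicate 1 or either LPS array gave 0 in both directions. With the third LPS array included as a sixth array, 0 probes passed. With the slide as a block, the 4-group fit gave 1 and 0 probes and the 5-array fit 24 and 25.

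Because the re-stimulated LPS group had 2 arrays, no exact permutation test of a single gene could go below p = 0.1. The sections below therefore give each array's value, and call a gene separated when the 2 groups of arrays did not overlap and their means lay at least 1.5-fold apart. With 1 probe for each of 18544 genes, 1392 genes (7.51%) were separated with re-stimulated LPS higher and 1211 (6.53%) with re-stimulated CpG higher, and these shares are the background against which each group of genes is read. The split depended on scaling: over probes it was 1858 (7.35%) against 1690 (6.68%) with the authors' values, but 647 against 6240 when each array was scaled to its median, which moved the median of all probes by -0.367, and 685 against 2154 when all 27 arrays were remade together, which moved it by -0.311. That alternative adds the third LPS array and normalizes together with it a Pam3CSK4 acute array that also failed quality control, so its shifts cannot be assigned to the LPS array alone. Of 118 recomputed differences of at least 1.5-fold, 28 shrank over 1.5 times or changed sign there, and these are given below, for the genes described, as values with the third LPS array. Differences that shrank less, or grew, are given for few genes, so a gene without such a value is not shown to be stable. Differences are log2 values of re-stimulated LPS minus re-stimulated CpG. Apart from Dclk1, no gene named below passed the 4-group test, and adjusted p-values from the 5 arrays alone are named as such.

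LPS and CpG replicates 1 and 2 shared a slide in pairs, so each gene had 2 differences within a slide. All 80 probes called from the 5 arrays had the same sign on both slides, which the calls themselves used. Array position on the slide was the same for every replicate of a group, so position and ligand cannot be told apart.

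**Figure D2:**
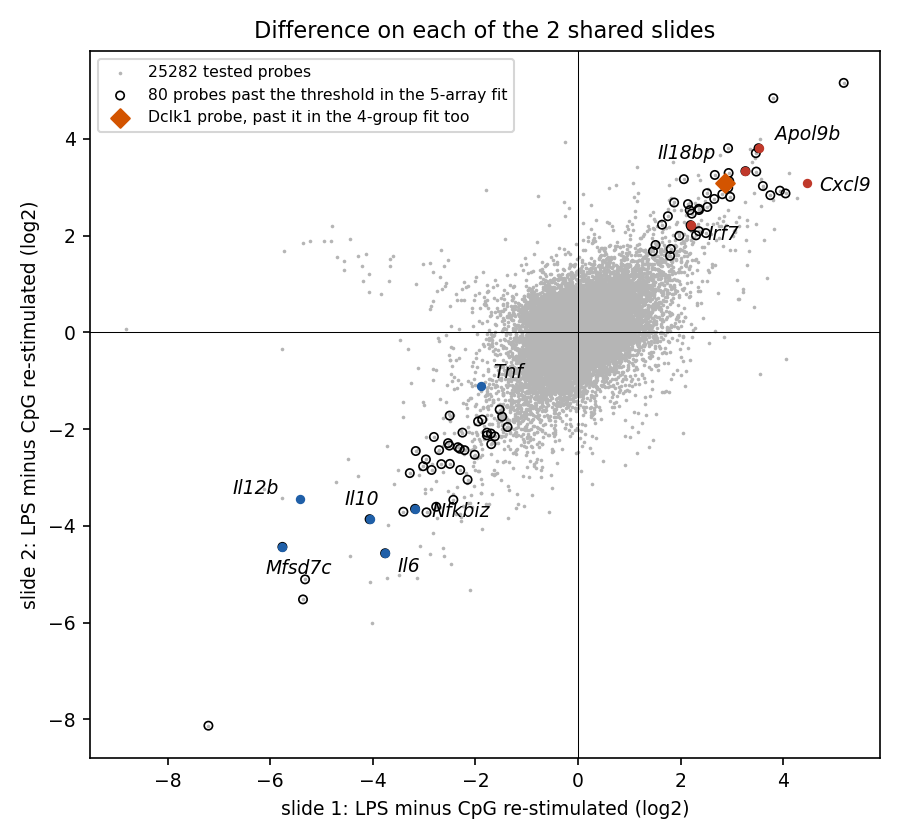
Difference between the re-stimulated LPS and CpG arrays of slide 1 (horizontal axis, log2) and of slide 2 (vertical axis, log2) for the 25282 tested probes, with the 80 probes called from the 5 arrays circled and some named genes in red (higher in LPS) or blue (higher in CpG). The circled probes lie along the diagonal, since their calls used these arrays, while Tnf lies nearer the centre.

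Dclk1 encodes a microtubule-associated kinase. Its called probe (chr3:55273441-55273500 in mm9) read 5.30 and 5.99 in re-stimulated LPS BMDM and 2.43, 2.90 and 2.26 in re-stimulated CpG BMDM, a difference of 3.12 (SE 0.29, limma adjusted p = 0.0236). The 2 LPS arrays were the only ones of the 5 on which it stood above background, so the authors' values give only a bound, at least 7.57-fold higher in re-stimulated LPS. That bound does not hold across background corrections, since with normexp the difference was 0.86. A second Dclk1 probe (chr3:55266925-55266984) read 5.90 and 5.88 against 4.73, 5.32 and 5.13, a difference of 0.83 that was not called (adjusted p = 0.422). The call was lost when LPS replicate 2 (adjusted p = 0.154), CpG replicate 1 (0.149) or CpG replicate 3 (0.134) was left out, and in 5 other alternatives, of which adding the third LPS array gave the largest adjusted p, 0.524, and a difference of 2.01. The called probe read 2.75 in naive BMDM, 2.61 in re-stimulated Pam3CSK4 and 3.96 in re-stimulated Poly(I:C).

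The promoters of the genes called from the 5 arrays were searched, on both strands, for letters of 4 known motifs: the interferon-stimulated response element (ISRE; GAAA, any 2 bases, GAAA), the STAT site GAS (TTC, any 3 bases, GAA), a κB site (GGG, any 2 bases, TTTCC) and an AP-1 site (TGA, any base, TCA). RefSeq promoter windows (GRCm38.p6, 250 bases before to 50 after the transcript start) matched 28 of 37 genes higher in re-stimulated LPS, 20 of 38 genes higher in re-stimulated CpG and 10360 of 18544 genes tested. ISRE letters were found in 4 of the LPS genes (14.3%) and 1 of the CpG genes (5%), against 4.05% of all tested genes. κB letters were found in 1 of the LPS genes (3.57%) and 3 of the CpG genes (15%), against 2.15%. Of those 3, Tmem176a and Tmem176b are genomic neighbours, and the ISRE genes on the LPS side include the close copies Apol9a and Apol9b. A gene counted if any of its promoters matched. AP-1 letters were in 21.4% and 10% against 6.6%, and GAS letters in 14.3% and 5% against 8.49%. A wider set held genes with any probe separated, 1595 with LPS higher and 1459 with CpG higher, and a gene could count on both sides. Of these, 954 and 787 had a promoter. Their shares were 6.6% and 4.7% for ISRE, 2.62% and 2.54% for κB, 11.8% and 7.24% for AP-1 and 9.75% and 8.77% for GAS. The κB shares of the 2 sides were thus near each other. The shares for called genes rest on few genes, none was tested, and a match of letters is not evidence of binding.

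The 250 bases before the start of Apol9b (1 of its 2 RefSeq promoters, chr15:77728871-77729120, plus strand), Il6 (chr5:30012864-30013113, plus strand) and Tmem176b (1 of 3, chr6:48841375-48841624, minus strand) are shown 5′ to 3′, since 1 carries the ISRE letters on the LPS side and the others the κB letters on the CpG side, with every searched motif in capitals. In Apol9b a pair of overlapping ISRE matches stands before an AP-1 match, and in Il6 an AP-1 match stands far upstream of the κB match.
Apol9b: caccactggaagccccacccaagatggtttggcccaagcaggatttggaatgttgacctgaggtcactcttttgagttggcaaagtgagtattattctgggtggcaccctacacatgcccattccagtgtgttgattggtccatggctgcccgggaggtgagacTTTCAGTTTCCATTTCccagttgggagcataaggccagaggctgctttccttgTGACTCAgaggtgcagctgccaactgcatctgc
Il6: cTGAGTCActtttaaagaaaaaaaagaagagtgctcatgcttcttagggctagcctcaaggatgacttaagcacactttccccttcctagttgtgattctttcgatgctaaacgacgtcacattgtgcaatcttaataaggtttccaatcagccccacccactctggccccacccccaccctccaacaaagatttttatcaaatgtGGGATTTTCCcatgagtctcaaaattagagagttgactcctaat
Tmem176b: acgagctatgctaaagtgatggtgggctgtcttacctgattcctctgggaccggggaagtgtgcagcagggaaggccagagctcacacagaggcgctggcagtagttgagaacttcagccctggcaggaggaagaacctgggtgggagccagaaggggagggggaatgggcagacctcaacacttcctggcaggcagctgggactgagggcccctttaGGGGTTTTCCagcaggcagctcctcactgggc

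Most genes of the type I interferon response had a higher mean in re-stimulated LPS than in re-stimulated CpG. Of 44 tested, 20 were separated with LPS higher and 2 with CpG higher, and the median difference was 0.56 against 0.0029 over all tested genes. By limma, 0 were called in the 4-group fit, 2 were called from the 5 arrays, and 19 had an unadjusted p under 0.05. Without CpG replicate 3 the separated counts were 23 and 2.

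Irf7, the transcription factor that amplifies interferon production, read 15.47 and 15.59 against 13.28, 13.37 and 13.64, and the arrays of the 2 groups were more than 1 unit apart. Its difference was 2.10 (SE 0.36, adjusted p = 0.146, and 0.0262 from the 5 arrays). The exonuclease Isg20 read 14.77 and 14.31 against 12.27, 12.26 and 12.74 (adjusted p = 0.169, and 0.0456 from the 5 arrays), and its second probe differed by 1.94. Oas3, which makes the second messenger that activates RNase L, read 12.70 and 12.63 against 10.94, 10.09 and 11.12. Both LPS arrays lay above all CpG arrays for these genes, as they did for Ifi44 (2.07), Phf11d (1.87), Oasl2 (1.51), Xaf1 (1.33) and Stat2 (0.88, 0.53 with the third LPS array).

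The interferon response did not lie to one side as a whole. The antiviral GTPase Mx2 read 11.31 and 11.83 against 12.91, 12.05 and 12.81 and the RNA-binding protein Ifit1 read 12.85 and 13.32 against 13.94, 13.62 and 14.42, so for both the CpG arrays were the higher ones. Isg15, the ubiquitin-like modifier, read 16.94 and 16.62 against 16.78, 15.96 and 17.34, and Usp18, which removes it, read 13.40 and 13.77 against 13.42, 13.11 and 13.62. The groups overlapped for both, and under median scaling both differences turned negative. The cytosolic RNA sensors Ifih1 (-0.20) and Dhx58 (0.20) overlapped between the groups as well, with signs that turned in some alternatives, and so did the nucleic acid sensor Zbp1 (0.83), whose lowest LPS array was 14.74 and highest CpG array 14.82. A second Zbp1 probe differed by 1.46. Nlrc5, the transactivator of MHC class I genes, read 11.02 and 11.08 against 10.17, 9.76 and 10.45, and its difference of 0.92 was 0.55 with the third LPS array. A second Nlrc5 probe differed by 0.195.

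Among 16 interferon-inducible GTPases, 6 were separated with LPS higher and 0 with CpG higher (median difference 0.61). Without CpG replicate 3 the counts were 8 with LPS higher and 0 with CpG higher, and without CpG replicate 2 the median, relative to all probes, was 0.35. Gbp4 read 8.86 and 8.90 against 6.65, 6.71 and 6.97 (adjusted p = 0.308, and 0.0252 from the 5 arrays). Gbp11 read 7.13 and 7.53 against 3.01, 4.23 and 5.31, and it stood above background on only 1 of the 3 CpG arrays. Gbp6 (1.91) and Gbp9 (1.63) were separated too, whereas Gbp5 read 11.997 and 11.41 against 12.57, 11.59 and 13.30 and Irgm2 11.63 and 11.91 against 12.17, 12.20 and 12.25. With the third LPS array the differences of Gbp4, Gbp9 and Gbp11, which were 2.10, 1.63 and 3.15, became 0.094, 0.74 and 1.67. Guanylate-binding protein genes are close paralogs, and their probes may share signal.

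MHC class I presentation genes lay in the same direction. Of 19 genes tested, 12 were separated with LPS higher and 0 with CpG higher, 63.2% against the 7.51% of all genes, with a median difference of 0.70. Without CpG replicate 3 the count was again 12. Tap1, a subunit of the transporter that carries peptides into the endoplasmic reticulum, read 11.57 and 11.64 against 10.20, 10.23 and 10.60. The tapasin-related chaperone Tapbpl read 10.94 and 10.87 against 8.86, 9.02 and 9.79, the immunoproteasome subunit Psmb10 16.54 and 16.21 against 14.97, 14.77 and 15.63 and the heavy chain H2-K1 17.96 and 17.82 against 16.87, 17.11 and 17.58. No member was called, and the adjusted p of Tap1 was 0.293.

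Inflammasome components, which activate caspase-1, had 8 of 16 genes separated with LPS higher and 1 with CpG higher (median difference 0.64), the same counts as without CpG replicate 3. Nlrp1a, a sensor of the family, read 15.80 and 15.95 in re-stimulated LPS BMDM and 12.86, 12.66 and 13.27 in re-stimulated CpG BMDM (adjusted p = 0.229, and 0.0184 from the 5 arrays). All LPS arrays were more than 2 units above the highest CpG array, but a second Nlrp1a probe, at 6.67 and 6.50 against 6.49, 5.79 and 6.34, differed by 0.38. Nlrp1b (0.99) and Casp1 (0.62), the protease itself, were separated in the same direction. Pycard, the adapter ASC, read 12.96 and 12.53 against 14.24, 13.48 and 13.58 and lay the other way.

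**Figure D3:**
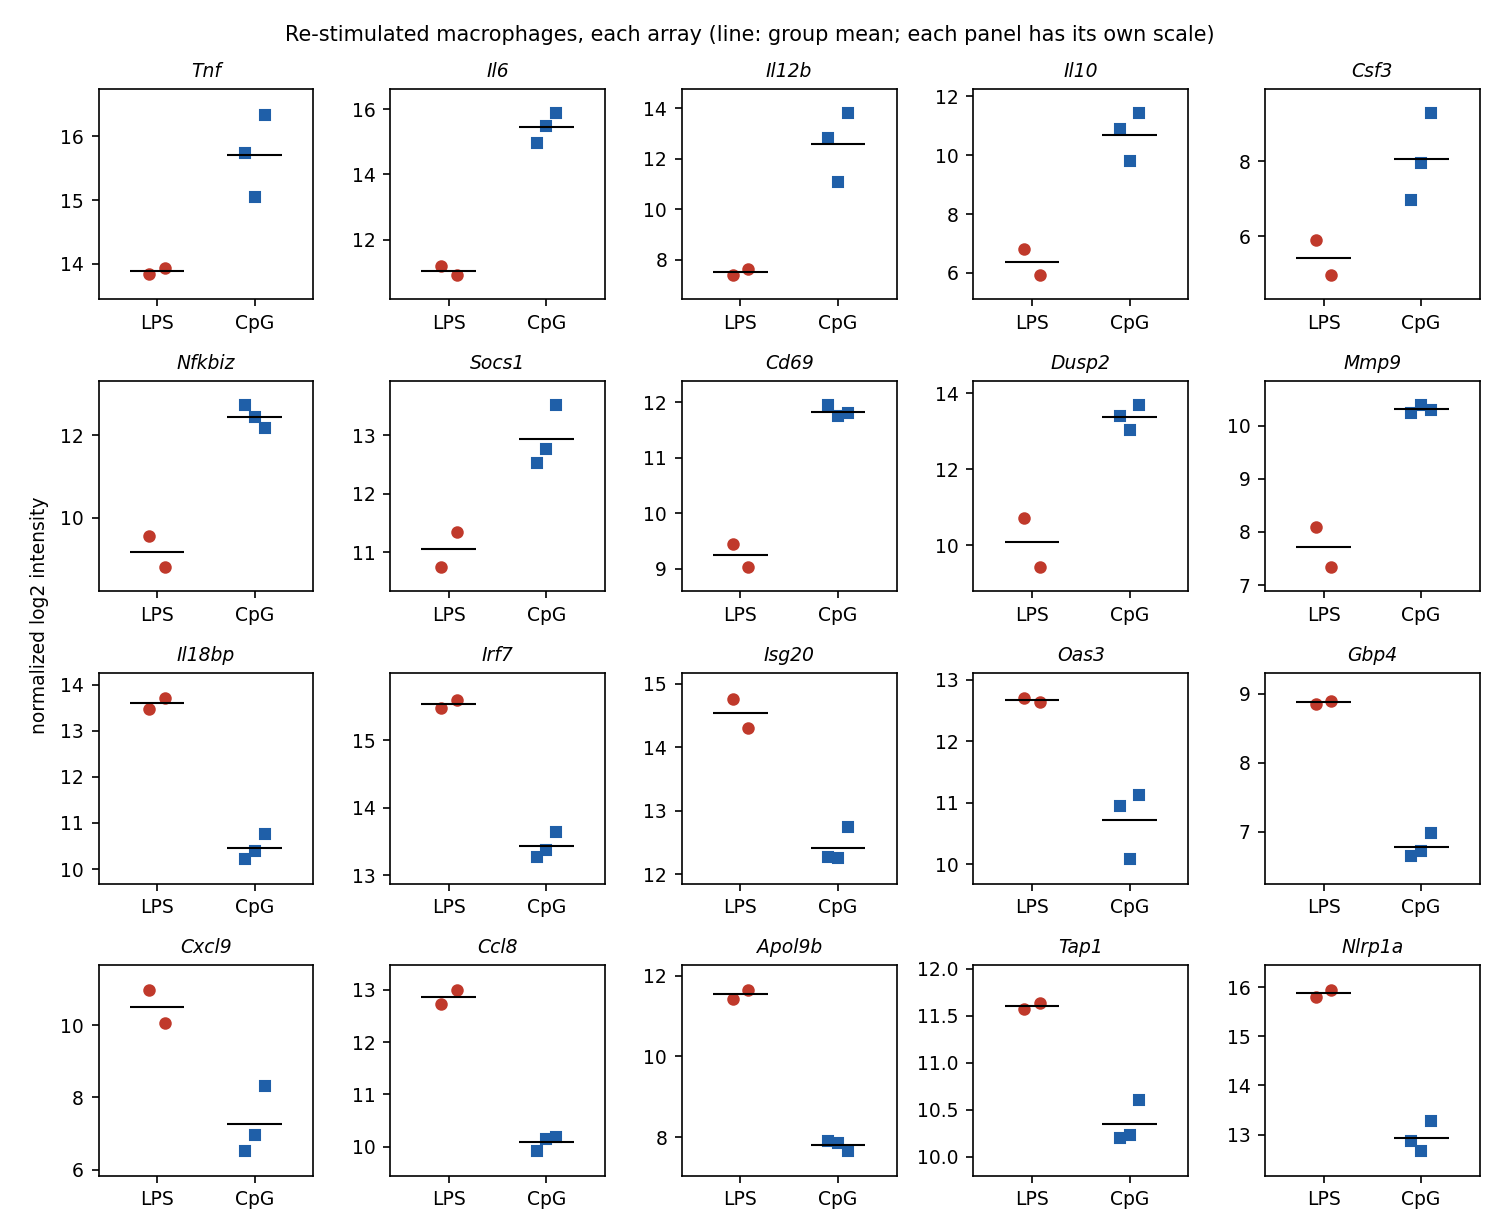
Normalized log2 intensity of 20 genes on each array of re-stimulated LPS (circles) and re-stimulated CpG (squares) BMDM, with the group mean as a line and a separate vertical scale in every panel. The upper 2 rows hold genes with all CpG arrays above both LPS arrays, and the lower 2 rows genes with both LPS arrays above all CpG arrays.

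Proinflammatory cytokines leaned the opposite way. Of 20 tested, 9 were separated with CpG higher and 4 with LPS higher, shares of 45% and 20% beside 6.53% and 7.51% of all genes, and the median difference was -0.61. Without CpG replicate 3 the counts were 9 and 4. By limma, 0 were called in the 4-group fit and 1, Il6, from the 5 arrays.

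Il6, a cytokine that drives the acute-phase response, read 11.19 and 10.92 in re-stimulated LPS BMDM and 14.95, 15.48 and 15.87 in re-stimulated CpG BMDM. Its promoter, shown above, holds κB letters. The lowest CpG array stood more than 3 units above the higher of the 2 LPS arrays. The means were 20.8-fold apart, a difference of -4.38 (SE 0.96, adjusted p = 0.195, and 0.0184 from the 5 arrays). For Il6 the third LPS array read 13.00 on the remade scale, beside a CpG mean of 15.40, and the difference with it was -3.66. Il12b, the subunit shared by IL-12 and IL-23, read 7.39 and 7.65 against 12.82, 11.09 and 13.79, a difference of -5.05 with a wide spread among the CpG arrays (adjusted p = 0.18, and 0.0737 from the 5 arrays). With the third LPS array, which read 12.42 on the remade scale beside a CpG mean of 12.58, the difference was -3.30. Its partner Il12a was not well above background on either LPS array and read 2.90 and 3.52 against 4.07, 5.36 and 5.20. It was at least 3.18-fold higher in re-stimulated CpG on the authors' values. Among the alternatives the Il12a difference was as small as -0.45. Il23a was not well above background on enough arrays to be tested.

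Tnf read 13.84 and 13.94 against 15.74, 15.06 and 16.34, a difference of -1.82 (SE 0.80, adjusted p = 0.427). The 2 LPS arrays lay below all CpG arrays, and the CpG arrays spread over more than 1 unit. Csf3, the growth factor of granulocytes, read 5.90 and 4.97 against 6.96, 7.95 and 9.27, and Il19, a cytokine of the IL-10 family, read 5.56 and 4.44 against 7.80, 8.03 and 9.19, above background on 1 of the 2 LPS arrays. On the authors' values Csf2 was at least 8.23-fold higher in re-stimulated CpG, since its probe was not well above background on the LPS arrays. Among the alternatives the Csf2 difference was as small as -0.93. The members separated with LPS higher were Il18 (1.62), Il15 (1.284), the gp130 cytokine Osm (1.06) and Csf1 (0.86). With the third LPS array Il18 was at 1.56, Il15 at -0.54 and Osm at 0.025. For Csf1 that array read 3.47 on the remade scale, below the CpG mean of 7.98, while the other LPS arrays read 8.57 and 9.05. Neither form of interleukin-1 separated, and the sign of both changed between alternatives: Il1a read 10.44 and 10.51 against 9.77, 10.08 and 11.27 and Il1b 15.57 and 16.13 against 15.18, 16.28 and 15.79. Il1f6, the IL-36 cytokine now named Il36a, read 9.06 and 9.26 against 7.25, 7.54 and 7.56 (adjusted p = 0.194, and 0.0409 from the 5 arrays), but its difference was -0.28 when the third LPS array was included.

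The anti-inflammatory cytokines and decoy receptors held members far out in both directions. Il10, which restrains macrophage activation, read 6.82 and 5.93 in re-stimulated LPS BMDM and 10.88, 9.79 and 11.43 in re-stimulated CpG BMDM, a difference of -4.33 (SE 1.19, adjusted p = 0.264, and 0.047 from the 5 arrays). Il18bp, the soluble inhibitor of IL-18, read 13.48 and 13.72 in re-stimulated LPS BMDM and 10.21, 10.39 and 10.76 in re-stimulated CpG BMDM, a difference of 3.15 (SE 0.54, adjusted p = 0.146, and 0.0184 from the 5 arrays). Each of the 2 genes was without overlap between the groups. The interleukin-1 receptor antagonist Il1rn (1.44) was separated on the side of Il18bp. In all, 4 of 11 tested members were separated with LPS higher and 1 with CpG higher. The median of the list was 0.58, and 0.17 without CpG replicate 3.

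Chemokines divided by gene. Ccl8, a monocyte chemoattractant, read 12.72 and 13.00 against 9.91, 10.15 and 10.19 (difference 2.78, SE 0.56, adjusted p = 0.18, and 0.0184 from the 5 arrays). Cxcl9, an interferon-induced ligand of CXCR3, read 10.98 and 10.04 against 6.51, 6.95 and 8.33, and its second probe differed by 3.104. Cxcl10, a ligand of the same receptor, read 15.71 and 16.57 against 16.09, 16.10 and 17.25, so its groups overlapped, and a second Cxcl10 probe differed by -1.67. The neutrophil attractant Cxcl3 read 14.16 and 15.24 against 12.83, 14.03 and 13.20, a difference of 1.35 that was 0.41 with the third LPS array, while Cxcl1 (-0.96), Cxcl2 (-1.14) and Cxcl5 (0.53) overlapped between the groups, and the signs of Cxcl5 and Cxcl10 turned in some alternatives. Ccl3 read 14.997 and 15.77 against 16.60, 16.86 and 16.84 and Ccl4 read 15.81 and 16.27 against 17.91, 17.64 and 17.97, both higher on all CpG arrays. Ccl5 read 18.72 and 18.72 against 18.46, 18.40 and 18.44 and Ccl2 15.44 and 15.30 against 14.59, 14.34 and 15.47, and the sign of Ccl5 turned under median scaling. Of 11 CC chemokines tested, 3 were separated in one direction and 3 in the other, and of 12 CXC and CX3C chemokines, 4 with LPS higher and 0 with CpG higher. The medians of the 2 lists, -0.05 and 0.26, were 0.17 and -0.06 without CpG replicate 3, where the counts were 4 in each direction for CC chemokines and 3 with LPS higher and 1 with CpG higher for the others.

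Inducible regulators of NF-κB lay on the CpG side where they were separated. Nfkbiz, the nuclear IκB protein IκBζ, which acts on secondary response genes such as Il6, read 9.56 and 8.80 in re-stimulated LPS BMDM and 12.73, 12.44 and 12.19 in re-stimulated CpG BMDM. Its arrays were more than 2 units apart, with a difference of -3.28 (SE 0.56, adjusted p = 0.146, and 0.0252 from the 5 arrays). The third LPS array read 11.68 on the remade scale, beside a CpG mean of 12.47, and the difference with it was -2.38. Zc3h12a, the RNase Regnase-1 (-1.01), Tnfaip3, the ubiquitin-editing enzyme A20 (-0.85), and Nfkbia, which encodes IκBα (-0.82), were separated in that direction, 5 of 20 members in all against 0 with LPS higher. Without CpG replicate 3 the counts were 1 with LPS higher and 5 with CpG higher. The median difference of the list was 0.05. The NF-κB subunit Nfkb1 read 10.91 and 10.49 against 10.95, 10.87 and 11.22 and the atypical IκB protein Bcl3 13.71 and 13.90 against 13.90, 13.85 and 14.07.

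Feedback inhibitors of cytokine signalling and the early response genes held further members of this kind. Socs1, which blocks JAK kinases, read 10.75 and 11.35 against 12.53, 12.76 and 13.51 (adjusted p = 0.406), and Socs3 differed by -0.92. In the opposite direction lay Axl, a receptor that recognizes dying cells (1.58, 0.49 with the third LPS array), and Trem2 (1.02), and the list held 4 members separated with LPS higher and 3 with CpG higher of 27. Dusp2, a phosphatase of MAP kinases, read 10.72 and 9.42 against 13.41, 13.03 and 13.68, with all CpG arrays more than 2 units above the higher LPS array, and Dusp16 differed by -1.34. The transcription factors Myc (-2.49) and Maff (-1.30) were separated likewise. Among 31 tested MAPK phosphatases and immediate early genes, 5 were separated with CpG higher and 2 with LPS higher.

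Receptors and proximal signalling proteins had smaller differences. Ifnb1 itself read 8.30 and 9.47 against 10.37, 9.04 and 10.03, with overlap, a difference of -0.93 and within-slide differences of -2.07 and 0.43 that opposed each other. The third LPS array read 2.88 on the remade scale, beside a CpG mean of 9.90, and the Ifnb1 difference with it was -2.93. The receptor chains Ifnar1 (0.56) and Ifnar2 (0.57) each lay under the 1.5-fold limit. Of 15 interferon regulatory factors and STATs, 3 (Irf7, Stat2 and Irf8, the last at 0.80) were separated with LPS higher and 1, Stat4 (-1.75, -0.73 with the third LPS array), with CpG higher. For the kinases of the NF-κB pathway the values were 0.07 for Chuk, 0.11 for Ikbkb, -0.03 for Ikbke and 0.45 for Map3k14, and Irak3, the inhibitory kinase of the IRAK family linked to LPS tolerance, read 13.56 and 13.16 against 13.27, 13.55 and 13.21. The signs of Chuk, Ikbkb, Ikbke and Irak3 turned in some alternatives. Azi2, an adapter of TBK1, differed by 0.31, and by -0.12 under median scaling. Of 29 adapters and kinases tested, 1 was separated with LPS higher and 2 with CpG higher, among them Map3k8, the kinase Tpl2 upstream of ERK, at 9.19 and 9.09 against 10.84, 10.49 and 10.78. Without CpG replicate 3 those counts were 4 with LPS higher and 3 with CpG higher. Of 20 Toll-like receptors and accessory proteins, 3 and 1 were, with Tlr13, a sensor of bacterial ribosomal RNA, at 14.67 and 14.81 against 13.02, 13.79 and 13.07 (1.45, and 0.93 with the third LPS array).

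**Figure D4:**
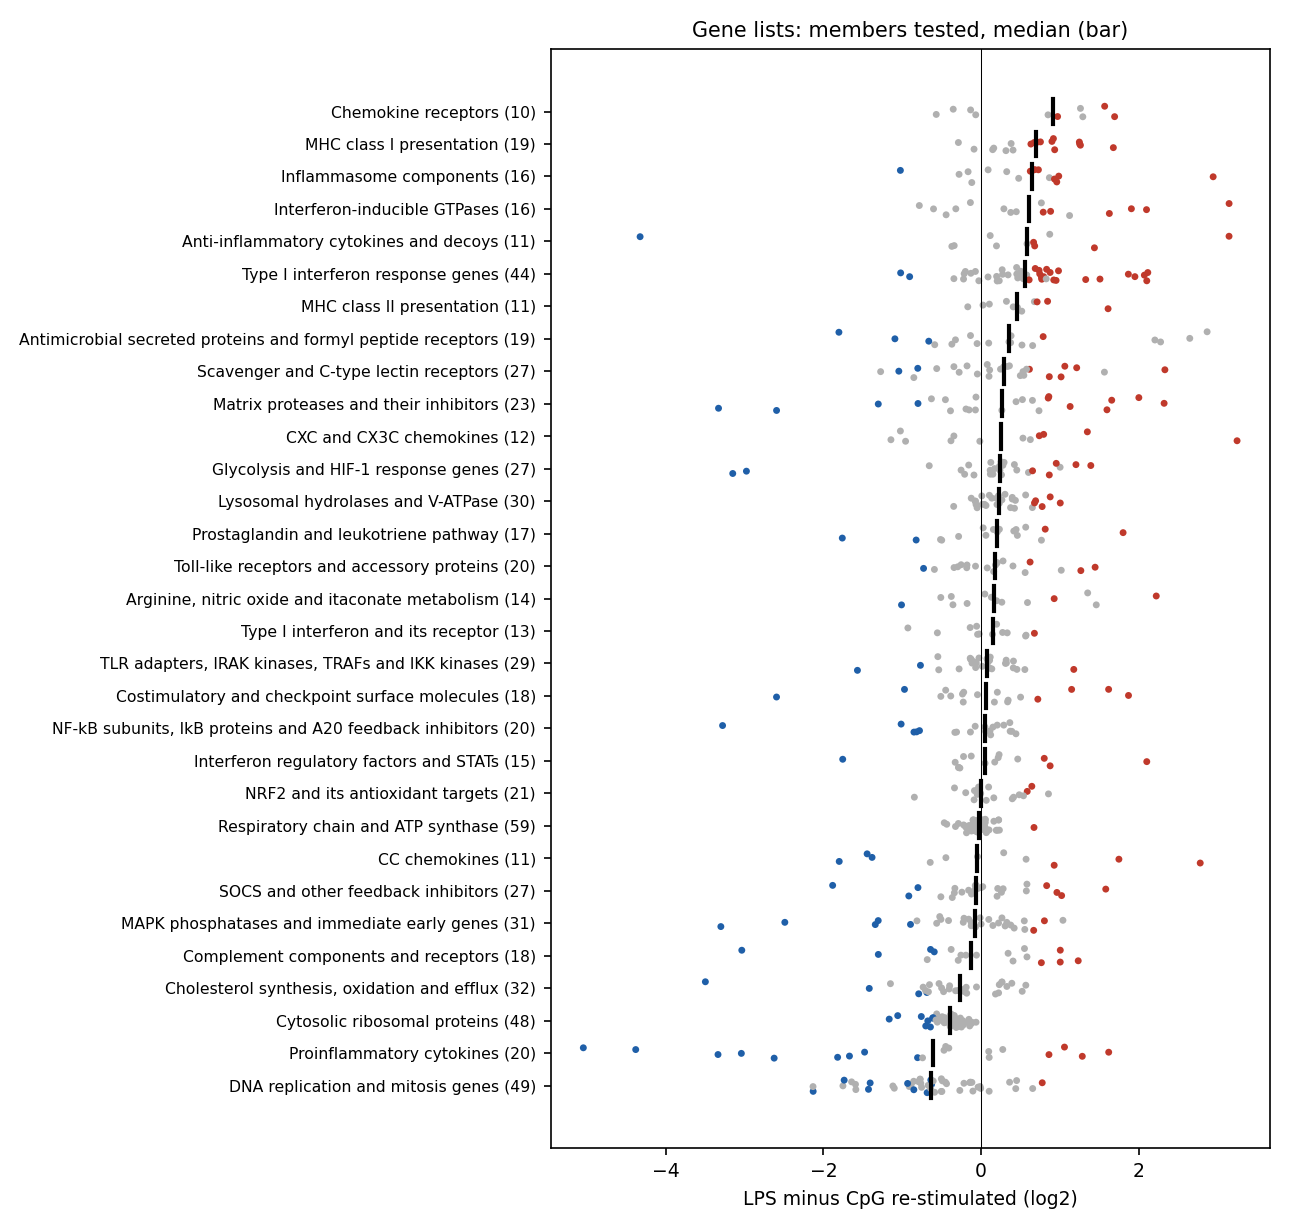
Difference of every tested member of the 31 gene lists (horizontal axis, log2 of re-stimulated LPS minus CpG), with the number tested in brackets, the median as a bar, and members separated with LPS higher in red, with CpG higher in blue and the rest in grey. The lists of proinflammatory cytokines and of DNA replication genes have medians below -0.6. Those of chemokine receptors, MHC class I presentation, inflammasome components and interferon-inducible GTPases have medians above 0.6.

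Further genes called from the 5 arrays are given here and in the next paragraph, chosen after their values were seen, and of these Cd55 alone was not called. On the LPS side, the apolipoprotein L gene Apol9b, whose promoter holds the ISRE letters shown above, read 11.42 and 11.66 in re-stimulated LPS BMDM and 7.90, 7.85 and 7.64 in re-stimulated CpG BMDM (difference 3.74, adjusted p = 0.222, and 0.0184 from the 5 arrays), and the 2 Apol9a probes differed by 3.06 and 4.37. The genes are close copies whose probes may not tell them apart. Ms4a4c, a membrane protein, had 3 probes, at differences of 3.25, 3.18 and 0.51, and its neighbour Ms4a4b read 12.45 and 11.98 against 8.70, 9.14 and 9.62 (second probe, difference 1.04). Mgl2, a galactose-binding lectin, read 15.95 and 16.06 against 13.77, 13.54 and 13.72 and the serpin Serpina3g 9.81 and 9.85 against 6.85, 7.05 and 6.27. Timp1, an inhibitor of matrix proteases, read 10.71 and 11.03 against 8.35, 8.94 and 8.35, whereas its target Mmp9 read 8.09 and 7.34 against 10.24, 10.38 and 10.30, so this inhibitor and protease lay on opposite sides. With the third LPS array the differences of Timp1 and Serpina3g, 2.32 and 3.11, were 0.37 and 0.85. Ddit3, the stress-response factor CHOP, read 11.35 and 11.59 against 9.84, 9.78 and 9.63. The predicted gene Gm15056 had the largest difference on this side, 4.85, which was 2.67 with the third LPS array.

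On the CpG side, Tmem176a read 9.62 and 9.60 against 12.28, 12.32 and 11.77 and its genomic neighbour Tmem176b 12.96 and 12.59 against 15.82, 15.44 and 15.28. The third LPS array was nearer the CpG level on the remade scale. It read 11.62 for Tmem176a and 14.94 for Tmem176b, beside CpG means of 12.14 and 15.47. Prkcb, protein kinase C β, read 12.63 and 12.36 against 14.93, 14.77 and 14.89 (adjusted p = 0.399, and 0.0184 from the 5 arrays), and each group of these arrays spread over less than 0.3 units. For Prkcb the third LPS array read 14.63 on the remade scale, beside a CpG mean of 14.83. The difference with that array was -1.62. The activation antigen Cd69 read 9.45 and 9.03 against 11.95, 11.75 and 11.81. Mfsd7c, the transporter now named Flvcr2, was not above background on the 2 LPS arrays and was at least 40.6-fold higher in re-stimulated CpG on the authors' values. However, on the remade scale the third LPS array read 10.35, above the CpG mean of 8.48, and the difference went from -5.34 to -2.85 with it. Among the alternatives the Mfsd7c difference was as small as -2.46. For the synaptic protein Nrxn2 the bound from 1 probe was at least 48.3-fold, and a second probe differed by -1.80, which was -1.11 with the third LPS array. The largest difference of all 80 probes was in Raver2, an RNA-binding protein, where 1 probe, above background on 1 of the 2 LPS arrays, read 4.63 and 2.64 against 11.83, 10.78 and 10.03 while a second probe read 8.57 and 8.62 against 9.09, 8.97 and 8.82 and was not called. The alpha chain of the interleukin-2 receptor, Il2ra, above background on 1 of the 2 LPS arrays, read 4.86 and 4.91 against 7.67, 7.07 and 7.18. Among the alternatives the Il2ra difference was as small as -1.25. The complement regulator Cd55 differed by -3.03 and its paralog Daf2 by -2.65.

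Metabolic and housekeeping groups differed in direction. Glycolysis and HIF-1 response genes had a median of 0.24, and of 27 tested 5 (18.5%) were separated with LPS higher and 2 with CpG higher. Lysosomal hydrolase and V-ATPase genes had a median of 0.23, with 5 of 30 (16.7%) separated with LPS higher and 0 with CpG higher. The lists that follow in this paragraph lay on the CpG side or near 0. With 1 probe a gene, all 48 cytosolic ribosomal protein genes had a lower mean in re-stimulated LPS, with a median difference of -0.39 and 8 of them separated, led by Rpl10a (-1.17) and Rpl3 (-1.06, -0.66 with the third LPS array). Over all their probes, 2 of the 3 for Rps3 and 2 of the 4 for Rps27 were higher in re-stimulated LPS. With the third LPS array included, that median, relative to all probes, was -0.020. DNA replication and mitosis genes had a median of -0.64, and 9 of 49 were separated with CpG higher, 21 without CpG replicate 3. Relative to all probes, that median was -0.96 without LPS replicate 1, -0.26 without LPS replicate 2 and -0.37 with normexp. Ccna2, cyclin A2, read 6.32 and 4.18 against 8.21, 7.501 and 6.44 and the topoisomerase Top2a 6.47 and 5.26 against 8.15, 7.55 and 7.11, and in both genes the 2 LPS arrays differed from each other by more than 1 unit. Cholesterol genes had a median of -0.27 and 4 of 32 members separated with CpG higher, 12 without CpG replicate 3, with Ch25h, which makes 25-hydroxycholesterol, at 10.13 and 7.62 against 12.57, 10.95 and 13.59 and the isoprenoid enzyme Fdps at 12.11 and 11.38 against 13.10, 13.39 and 12.99. Respiratory chain genes centred on -0.03, and 1 of 59 was separated.

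Single enzymes of the inflammatory response differed in opposite directions. Nos2, the inducible nitric oxide synthase, read 13.37 and 13.78 against 10.08, 11.59 and 12.39 and was higher on both LPS arrays, and Ptgs2, the inducible cyclooxygenase, read 11.89 and 12.39 against 13.36, 13.67 and 14.68 and was higher on all CpG arrays. Among HIF-1 response genes, Adm (-3.15) and Ndrg1 (-2.98) lay on the CpG side and Vegfa (1.20) on the LPS side. Adamts4 (-3.33) and Mmp13 (1.597) stood on the 2 sides of the matrix protease list, at -1.73 and 0.043 with the third LPS array, and of this list 7 members were separated with LPS higher and 4 with CpG higher of 23. The other lists (chemokine receptors, MHC class II, scavenger receptors, antimicrobial, complement, costimulatory, prostaglandin, arginine and NRF2 genes) had medians between -0.13 and 0.91. The median of the chemokine receptors was 0.14 without CpG replicate 3, where the separated counts were 4 with LPS higher and 5 with CpG higher for prostaglandin genes (from 2 in each direction) and 3 with LPS higher and 2 with CpG higher for glycolytic genes (from 5 and 2). The median of the antimicrobial proteins, which hold the neutrophil genes above, went without that array from 0.35 to -0.02.

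Levels in the other groups on the arrays are described only by their values, since comparisons with naive or other cells would share the same arrays. Irf7 averaged 11.55 in naive BMDM, 15.53 in re-stimulated LPS and 15.68 in re-stimulated Poly(I:C), against 13.43 in re-stimulated CpG and 12.61 in re-stimulated Pam3CSK4. Il18bp averaged 10.23 in naive BMDM, 13.60 and 13.71 in re-stimulated LPS and Poly(I:C), and 10.45 and 10.14 in re-stimulated CpG and Pam3CSK4. For both genes the ranges of re-stimulated LPS and Poly(I:C) overlapped, as they did for Ccl8, Nlrp1a and Mgl2.

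Il6 averaged 2.95 in naive BMDM, 15.84 in acute LPS and 11.05 in re-stimulated LPS, while acute and re-stimulated CpG averaged 14.76 and 15.44. Il10 averaged 10.47 in acute LPS and 6.37 on the 2 re-stimulated LPS arrays, close to the 6.22 of naive BMDM. The third LPS array was higher, at 9.03 on the remade scale, where the other LPS arrays read 7.03 and 6.17. With it the Il10 difference between LPS and CpG, -4.33 without it, was -3.36. Il10 averaged 10.51 in acute CpG and ranged from 9.79 to 11.43 in re-stimulated CpG. For Tnf the averages were 17.12 and 13.89 with LPS and 17.49 and 15.71 with CpG, so both ligands gave a lower level on re-stimulation than acutely. The acute LPS arrays were made on other slides and scan days, so the step from acute to re-stimulated LPS also holds that difference. Prkcb averaged 15.08 in re-stimulated Pam3CSK4, beside 14.86 in re-stimulated CpG, and ranged from 10.41 to 14.62 over the 3 re-stimulated Poly(I:C) arrays. Timp1 averaged 7.71 in re-stimulated Poly(I:C) and 10.87 in re-stimulated LPS.

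**Figure D5:**
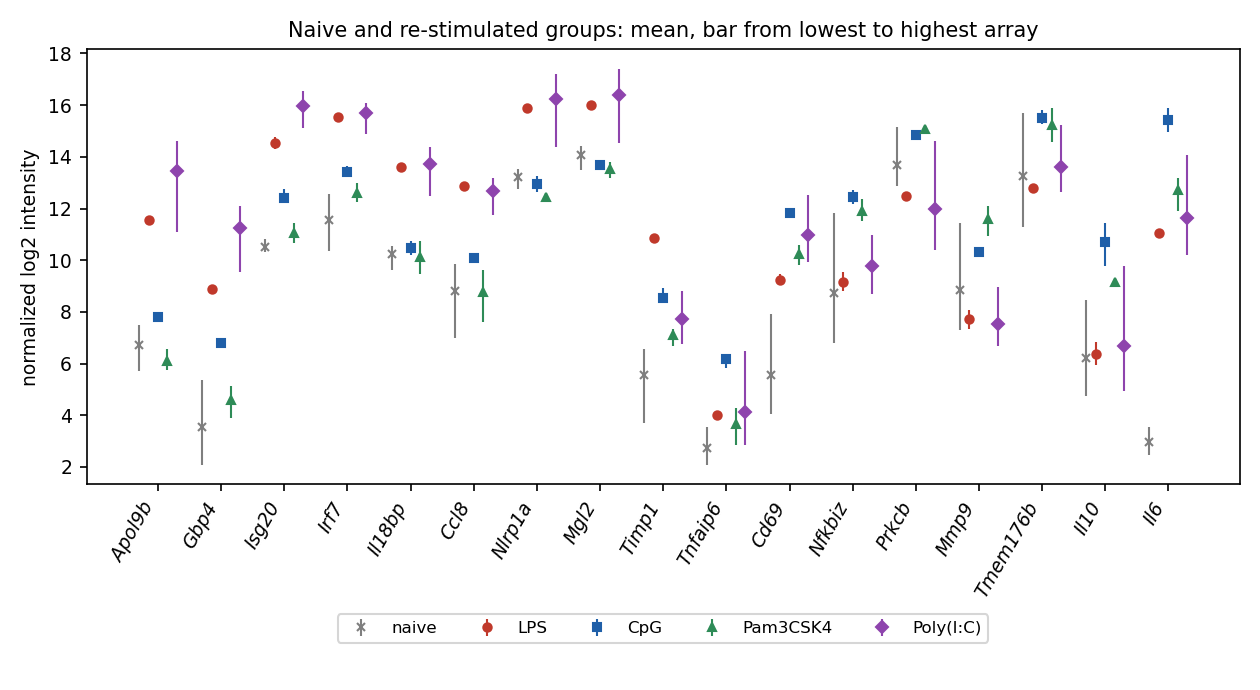
Mean normalized log2 intensity of 17 genes in naive BMDM and in BMDM re-stimulated with LPS, CpG, Pam3CSK4 or Poly(I:C), with bars from the lowest to the highest array. For Irf7, Il18bp and Ccl8 the LPS and Poly(I:C) ranges overlap and lie above the CpG range, and for Prkcb and Tmem176b the CpG and Pam3CSK4 ranges overlap.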

How the data were processed

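RNA was hybridized to single-colour Agilent 8x60K arrays read with Agilent Feature Extraction 10.7.3.1, with probe positions in mm9. The deposited log2 values were made by the authors with RMA background correction and quantile normalization in limma. Scanner intensities per spot were also deposited and, with the software's background flags (another unit, 0 or 1), gave the filter on dim probes and the remade values of the array without normalized values. Groups came from the sample titles. Probes that the software placed well above background on 2 or more arrays of 1 group were tested with limma 3.58.1 (R 4.3.3, lmFit and eBayes) over the 4 re-stimulated groups, with a Benjamini-Hochberg threshold of 0.05 and 1.5-fold. This fit shares its spread across groups (median residual SD 0.308), whereas the 5 arrays alone gave 0.255. The scripts were tested on simulated data. For a gene with several probes, lists and counts over genes used the tested probe with the highest mean, and a gene named singly from the called probes was described by its called probe. Bounds compare the brighter group with the mean over the dim group's arrays of the higher of the probe's own value and that array's lowest signal well above background. They hold for the authors' values only, since some of these differences were smaller in the alternatives. A list describes a gene group by its counts and median, and none was tested as a set. Genes were named from the called probes, from the lists and from genes the study discusses for re-stimulated cells. The members, lists and named genes were chosen with earlier results of these data known. Slide sharing came from the scanner headers. Alternatives covered the fit, the replicate block, background correction, scaling, the dim-probe filter and single arrays. Results for some genes are not reported here.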

Additional observations from a re-analysis of the deposited data

How the results depend on the processing

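With 2 and 3 arrays and signal limits on dim probes, the number of called probes depended on the fit. Against 1 probe higher in re-stimulated LPS and 0 higher in re-stimulated CpG, the counts were 40 and 40 with the 5 arrays alone, 1 and 2 with 8 groups, 24 and 25 with the replicate block (slide) in the 5 arrays, 15 and 21 with it in 8 groups, and 1 and 0 with it in the 4 groups. They were 0 and 0 with no detection filter, median scaling, normexp, a variance trend or all 27 arrays, and 0 to 4 and 0 to 3 when single arrays of the 4-group fit were left out. Further fits were chosen after seeing the data. With LPS, CpG and Pam3CSK4 groups the counts were 82 and 83, with LPS replicate 3 as a sixth array 0 and 0, and in the 5-array fit 41 and 43 with remade values, 58 and 275 with median scaling, 118 and 108 with normexp, 32 and 35 with the 75th percentile, and 0 to 78 and 0 to 41 when single arrays were left out. LPS and CpG arrays with the same replicate number shared a slide by the scanner headers, and their deviations correlated at 0.0761 and 0.244. Probes separated with LPS and with CpG higher (1858 and 1690) were 3805 and 3589 with no detection filter, 647 and 6240 with median scaling, 1156 and 994 with normexp, 685 with LPS higher with all 27 arrays (which include a Pam3CSK4 acute array that also failed quality control), and 1871 to 3389 and 1815 to 3078 when single arrays were left out, the most without LPS replicate 1. The cause of these changes was not tested.

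List medians, here relative to all probes, moved as follows. For the type I interferon and its receptor list the median of 0.15 was 0.064 to 0.37 when single arrays were left out. The proinflammatory cytokines list, with a median of -0.61, gave -1.13 with all 27 arrays and -0.95 to -0.42 when single arrays were left out. In the anti-inflammatory cytokines and decoys list a median of 0.58 was 0.14 with the block in 4 groups and 0.12 with the block in 8 groups. A median of -0.045 in the CC chemokines list became -0.48 to 0.27 when single arrays were left out. For the chemokine receptors list the median of 0.91 was 0.083 with the block in 4 groups, 0.14 with the block in 5 arrays, -0.021 with the block in 8 groups, 0.19 with all 27 arrays and 0.14 to 1.37 when single arrays were left out. The Toll-like receptors and accessory proteins list, with a median of 0.17, gave 0.0071 to 0.21 when single arrays were left out. In the TLR adapters, IRAK kinases, TRAFs and IKK kinases list a median of 0.075 was 0.20 with all 27 arrays. A median of 0.053 in the NF-kB subunits, IkB proteins and A20 feedback inhibitors list became 0.31 with all 27 arrays and -0.12 to 0.17 when single arrays were left out. For the SOCS and other feedback inhibitors list the median of -0.062 was -0.12 with the block in 4 groups, -0.0040 with 75th percentile scaling, 0.022 with all 27 arrays and -0.10 to 0.026 when single arrays were left out. The inflammasome components list, with a median of 0.64, gave 0.54 with the block in 4 groups and 0.51 to 0.65 when single arrays were left out. In the respiratory chain and ATP synthase list a median of -0.027 was 0.31 with all 27 arrays. A median of -0.0049 in the NRF2 and its antioxidant targets list became -0.13 to 0.32 when single arrays were left out. For the MHC class I presentation list the median of 0.70 was 0.98 with all 27 arrays. The MHC class II presentation list, with a median of 0.46, gave 0.13 with the block in 4 groups, 0.12 with the block in 8 groups, 0.26 with a random slide term and 0.67 with all 27 arrays. In the costimulatory and checkpoint surface molecules list a median of 0.062 was -0.14 with the block in 8 groups and -0.18 to 0.22 when single arrays were left out. A median of 0.35 in the antimicrobial secreted proteins and formyl peptide receptors list became -0.017 with the block in 4 groups, -0.019 with the block in 5 arrays, -0.30 with the block in 8 groups, -0.069 with all 27 arrays and -0.024 to 0.34 when single arrays were left out. For the lysosomal hydrolases and V-ATPase list the median of 0.23 was 0.28 with the block in 4 groups, 0.29 with median scaling, 0.31 with 75th percentile scaling, 0.40 with all 27 arrays and 0.18 to 0.32 when single arrays were left out. The cytosolic ribosomal proteins list, with a median of -0.39, gave -0.46 with median scaling, -0.020 with all 27 arrays and -0.47 to -0.35 when single arrays were left out.

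Differences that changed sign were mostly small. Ccl5 (0.29) was -0.00094 with median scaling. Cxcl5 (0.53) was -0.25 with the block in 5 arrays, -0.22 with the block in 8 groups, -1.48 with all 27 arrays and -0.25 to 1.18 when single arrays were left out. Il1a (0.10) was -0.32 with median scaling and -0.20 to 0.55 when single arrays were left out. Il1b (0.10) was -0.011 with the block in 8 groups, -0.40 with median scaling, -0.20 with all 27 arrays and -0.18 to 0.38 when single arrays were left out. Cxcl10 (-0.34) was 0.19 with the block in 4 groups, 0.039 with the block in 5 arrays, 0.034 with the block in 8 groups and -0.77 to 0.083 when single arrays were left out. Bcl3 (-0.13) was 0.034 with all 27 arrays. Ikbkb (0.11) was -0.32 with median scaling and -0.087 with all 27 arrays. Ikbke (-0.027) was 0.064 with the block in 4 groups, 0.15 with the block in 8 groups, 0.013 with a random slide term, 0.14 with all 27 arrays and -0.12 to 0.029 when single arrays were left out. Chuk (0.075) was -0.35 with median scaling. Irak3 (0.016) was -0.051 with the block in 5 arrays, -0.43 with median scaling, -0.012 with normexp, -0.092 with all 27 arrays and -0.18 to 0.21 when single arrays were left out. Usp18 (0.20) was -0.29 with median scaling and -0.067 with all 27 arrays. Isg15 (0.088) was -0.27 with median scaling and -0.28 to 0.41 when single arrays were left out. Azi2 (0.31) was -0.12 with median scaling and -0.43 with all 27 arrays. Dhx58 (0.20) was -0.20 with median scaling and -0.024 to 0.43 when single arrays were left out. Ifih1 (-0.20) was 0.025 with the block in 5 arrays and -0.36 to 0.025 when single arrays were left out. Il1f6 (1.71) was -0.28 with all 27 arrays. Il15 (1.284) was -0.54 with all 27 arrays. No other recomputed difference of a named gene changed sign.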
